A study of Mus musculus with 8 samples.

Results

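In the mouse liver, 10 genes of metabolic zonation were examined in 2 inbred strains, of 34778 gene and transcript names on the array. Glul, Oat, Rhbg, Slc1a2, Cyp2e1 and Cyp1a2 are genes of the hepatocytes around the central vein, Lgr5, Axin2 and Tbx3 are readouts of Wnt signalling in the same zone, and Hal is a periportal gene that was taken along as a reference. The members were chosen by name, with every probe for each name kept apart, and the array carried 16 such probes among its 55681. Liver RNA came from 4 male NZO/HiBomDife (NZO) mice, the obese and diabetes-susceptible strain, and from 4 male C57BL/6 (B6) mice, the lean and diabetes-resistant strain. All 8 mice were 6 weeks old, all received a high fat diet with 45% fat, and each mouse gave 1 one-colour Agilent array. There was no group on another diet, and the strains differ across the whole genome, so a difference between them cannot be assigned to a particular allele.

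Hepatocytes along the path from the portal vein to the central vein carry out different tasks. Endothelial cells of the central vein release Wnt ligands and R-spondins, which keep beta-catenin active in the neighbouring hepatocytes and so maintain the pericentral programme, including glutamine synthesis from ammonia and drug oxidation by cytochrome P450 enzymes. Urea formation, gluconeogenesis and histidine breakdown are periportal tasks. In RNA of whole liver, fewer cells of a zone and less RNA per cell cannot be told apart.

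Of the pericentral genes, Rhbg was called higher in NZO liver, and Slc1a2 was called lower at 1 of its 3 probes without overlap of the strains. A further Slc1a2 probe was called lower, but its values overlapped, and it passed the detection filter only through B6, where it is higher. That call was lost under 16 of 22 alternatives, with -0.053 under normexp background correction, and adds no support to the first. Glul, Oat, Tbx3, Cyp2e1 and Cyp1a2 and the detected probe of Lgr5 were not called, although all NZO mice lay below all B6 mice for Glul, Lgr5, Cyp1a2 and 1 probe of Cyp2e1. A probe was called at an adjusted p of at most 0.05 (limma, Benjamini-Hochberg over all 27651 probes tested) together with an absolute log2 fold change of at least 0.7. By this rule 4.34% of all probes tested were higher and 5.29% were lower in NZO, so that 45.06% of the called probes were higher; on the deposited table as given, which holds raw signals, this share was 28.82%, scaled to the 75th percentile it was 51.68%, and with normexp background correction 51.55%. Of the 13 member probes tested, 1 was higher (Rhbg) and 2 were lower (both of Slc1a2, 1 of them tested through B6 alone). Both probes of Hal were without a call.

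Levels are given as the log2 signal of a probe minus the 75th percentile of its array, so that 0 is the 75th percentile. They can be set against each other between mice but not between probes. Of the 16 member probes, 13 were tested because every mouse of NZO, of B6 or of both had a signal above background, and 1 of these, the probe of Slc1a2 at base 7009, passed only through B6. The base given for a probe is its first base on the transcript. The coordinates are those of the array files on mm9. The probes follow the reference mouse sequence, and the NZO sequence under them was not analysed here.

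**Figure D1:**
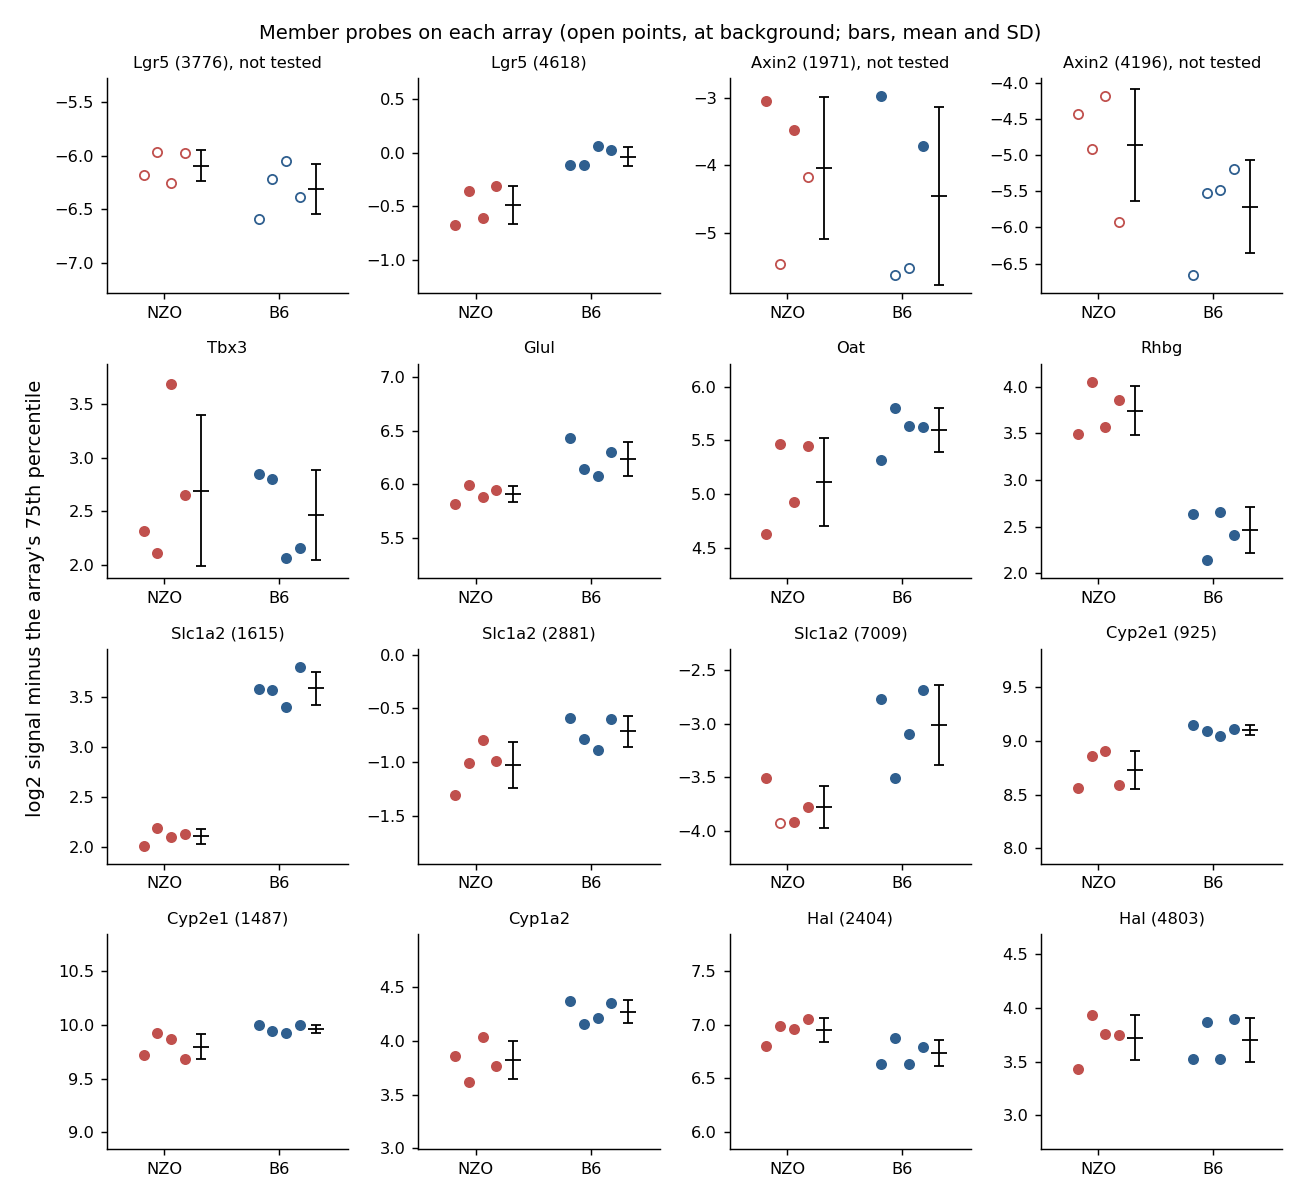
Log2 signal minus the array's 75th percentile (vertical axis, 1 range per panel) of the 16 member probes in 4 NZO and 4 B6 mice. Points are mice, open points were at background, and bars give the mean and SD; numbers in parentheses are the probe's first base on the transcript. The strains do not overlap for Rhbg, with NZO higher, and for Slc1a2 at base 1615, Glul, Lgr5 at base 4618, Cyp1a2 and Cyp2e1 at base 925, with NZO lower.

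The glutamate transporter gene Slc1a2, whose product takes up glutamate into pericentral hepatocytes, was measured by 3 probes on chromosome 2. The probe with the clearest difference lies at chr2:102617752-102617811 (plus strand, base 1615 of the transcript). Its sequence is shown because it carries the largest difference of the members, and it contains 1 reading frame without a stop.
Slc1a2 probe at base 1615: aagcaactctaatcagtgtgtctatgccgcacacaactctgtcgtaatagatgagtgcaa
Its levels were 2.19, 2.01, 2.10 and 2.13 in NZO mice 3, 7, 9 and 11. In B6 mice 9, 10, 11 and 15 they were 3.80, 3.57, 3.58 and 3.40. The NZO mice were close together (SD 0.074), and all B6 mice (SD 0.16) lay above all NZO mice. Expressed as NZO against B6 on the log2 scale, the fold change was -1.48 ± 0.11 (SE, n = 4 and 4, adjusted p = 6.5e-05), a level 2.79-fold higher in B6. Within the first scan day it was -1.34. Within the second, which held 1 NZO mouse, it was -1.68 without a call.

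The other probes of Slc1a2 gave smaller differences. At base 2881 (chr2:102622252-102622311) the mean was -1.03 ± 0.21 (SD, n = 4) in NZO and -0.72 ± 0.15 in B6, the log2 fold change was -0.31 ± 0.13 (SE, adjusted p = 0.17), and NZO mouse 9 at -0.79 lay among the B6 mice. At base 7009 (chr2:102626380-102626439) the levels were -3.92, -3.50, -3.92 and -3.78 in NZO mice 3, 7, 9 and 11 and -2.69, -3.51, -2.77 and -3.10 in B6 mice 9, 10, 11 and 15. This dim probe was above background in 3 of 4 NZO mice, its strains touched at NZO mouse 7 and B6 mouse 10, and its log2 fold change was -0.77 ± 0.20 (SE, adjusted p = 0.034). With normexp background correction the difference at this probe was -0.053. The call was lost when NZO mouse 3 (-0.72), 9 (-0.72) or 11 (-0.77) or B6 mouse 9 (-0.66), 11 (-0.68) or 15 (-0.79) was left out. Thus 1 of the 3 probes separated the strains, and the size of the Slc1a2 difference depended on the probe: -1.48, -0.31 and -0.77.

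Rhbg encodes a Rhesus-family ammonia transporter of pericentral hepatocytes. Its only probe (chr3:88047265-88047324, minus strand, base 1383) had levels of 4.05, 3.50, 3.57 and 3.86 in NZO mice 3, 7, 9 and 11. The B6 mice 9, 10, 11 and 15 had 2.42, 2.14, 2.64 and 2.66. Every NZO mouse exceeded every B6 mouse, and the lowest NZO value lay above the highest B6 value by more than either SD (0.26 and 0.24). Its log2 fold change was 1.28 ± 0.17 (SE, adjusted p = 0.0016), or 2.43-fold higher in NZO. It was 1.43 within the first scan day. Within the second, which held 1 NZO mouse, it was 0.97 without a call.

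Glul encodes glutamine synthetase, which fixes ammonia in the last hepatocytes before the central vein. Its probe (chr1:155756765-155756824, plus strand) gave 5.99, 5.81, 5.88 and 5.95 in NZO mice 3, 7, 9 and 11 and 6.30, 6.14, 6.43 and 6.08 in B6 mice 9, 10, 11 and 15. The values of the strains did not overlap, but the gap was narrow, and the log2 fold change of -0.33 ± 0.11 (SE, 95% interval -0.58 to -0.081) had an adjusted p of 0.085 and was below the fold limit. It was -0.17 within the first scan day and -0.55 within the second. The adjusted p passed with quantile normalization (-0.46, adjusted p = 0.016), on the deposited table as given (-0.56, 0.026) and with normexp correction (-0.39, 0.038). Each of these values was under the fold limit. In the 8 fits with 1 mouse left out the adjusted p was 0.079 to 0.20.

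Oat, ornithine aminotransferase, links ornithine to glutamate. Its levels (chr7:139749726-139749785, minus strand) were 5.46, 4.62, 4.93 and 5.45 in NZO mice 3, 7, 9 and 11 and 5.63, 5.81, 5.32 and 5.64 in B6 mice 9, 10, 11 and 15. NZO mice 3 and 11 lay among the B6 mice and NZO mice 7 and 9 below them. This corresponded to a log2 fold change of -0.48 ± 0.21 (SE, 95% interval -0.96 to 0.0026, adjusted p = 0.18), with -0.44 and -0.85 within the scan days. When 1 mouse was left out, it ran from -0.60 (without NZO mouse 3) to -0.32 (without NZO mouse 7).

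Among the Wnt readouts, the stem cell receptor gene Lgr5, whose product binds R-spondins, had 1 detected probe (chr10:114887403-114887462, minus strand, base 4618). It measured -0.36, -0.68, -0.61 and -0.31 in NZO mice 3, 7, 9 and 11 and 0.021, -0.12, -0.11 and 0.062 in B6 mice 9, 10, 11 and 15. All NZO mice lay below all B6 mice. The log2 fold change of -0.45 ± 0.12 (SE, 95% interval -0.72 to -0.19) passed the adjustment (adjusted p = 0.035) but not the fold limit, so the probe was not called; within the scan days it was -0.40 and -0.63. When 1 mouse was left out, the adjusted p passed in 2 of 8 fits (without NZO mouse 3 or 11). It was 0.064 to 0.097 in the other 6. The log2 fold change in the 8 fits was -0.51 to -0.39. The adjusted p was 0.073 by the methods' t-test and 0.051 with normexp correction. The other Lgr5 probe, at base 3776, was at background on all 8 arrays.

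Axin2, a feedback inhibitor and general target of the Wnt pathway, was not measured well enough to be tested. The probe at base 4196 was at background on all 8 arrays. The probe at base 1971 was above background in 2 of 4 NZO mice (mice 7 and 9) and 2 of 4 B6 mice (mice 9 and 11). A strain difference of Axin2 was therefore not detectable with these probes.

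Tbx3 encodes a transcription factor that is a Wnt target in pericentral hepatocytes. Its probe (chr5:120134511-120134570, plus strand) gave 2.12, 2.32, 3.69 and 2.65 in NZO mice 3, 7, 9 and 11 and 2.16, 2.80, 2.85 and 2.06 in B6 mice 9, 10, 11 and 15. NZO mouse 9 stood above the other 7 mice, which covered a common range. With a log2 fold change of 0.23 ± 0.36 (SE, 95% interval -0.59 to 1.05, adjusted p = 0.72), it changed sign without NZO mouse 9 (-0.10). The interval is wide enough to hold differences of the size of the fold limit in the upward direction.

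Cyp2e1, which oxidises ethanol and other small molecules, was read by probes at bases 925 (chr7:147956922-147956981) and 1487 (chr7:147960628-147960687), and Cyp1a2, a target of the aryl hydrocarbon receptor, by a probe at base 1032 (chr9:57528060-57528119, minus strand). The sequence of the first is shown, since it is the probe of Cyp2e1 at which the strains did not overlap.
Cyp2e1 probe at base 925: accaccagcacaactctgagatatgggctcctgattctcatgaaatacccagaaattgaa
For Cyp1a2 the levels were 3.62, 3.86, 4.04 and 3.76 in NZO mice 3, 7, 9 and 11 and 4.35, 4.16, 4.37 and 4.22 in B6 mice 9, 10, 11 and 15. Each NZO mouse was below each B6 mouse. The log2 fold change of -0.45 ± 0.12 (SE, 95% interval -0.72 to -0.19) had an adjusted p of 0.036 and stayed under the fold limit, with -0.38 and -0.50 within the scan days. When 1 mouse was left out, it passed the adjustment in 1 of 8 fits (without NZO mouse 9). The adjusted p was 0.055 to 0.10 in the other 7. The log2 fold change in the 8 fits was -0.53 to -0.39. The adjusted p was 0.056 with scan day as a term and 0.067 by the methods' t-test. For Cyp2e1 at base 925 the levels were 8.86, 8.56, 8.91 and 8.59 in NZO mice 3, 7, 9 and 11 and 9.12, 9.09, 9.15 and 9.05 in B6 mice 9, 10, 11 and 15. The spread was larger in NZO (SD 0.18) than in B6 (SD 0.043), and the log2 fold change was -0.37 ± 0.11 (SE, adjusted p = 0.058), with -0.29 and -0.57 within the scan days. Its adjusted p was 0.016 with normexp correction (-0.45) and 0.026 with quantile normalization (-0.50). On the deposited table it was 0.015 as given (-0.63) and 0.030 when scaled (-0.43). With 1 mouse left out it passed in 1 of 8 fits and was 0.063 to 0.14 in the other 7. At base 1487 the means were 9.80 ± 0.12 (SD, n = 4) in NZO and 9.97 ± 0.038 in B6, the strains overlapped, and the log2 fold change was -0.17 ± 0.093 (SE, adjusted p = 0.29).

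Hal encodes histidine ammonia-lyase, the first enzyme of histidine breakdown. At base 2404 (chr10:92979135-92979194) the levels were 6.99, 6.80, 6.96 and 7.05 in NZO mice 3, 7, 9 and 11 and 6.79, 6.88, 6.64 and 6.63 in B6 mice 9, 10, 11 and 15. Mouse 7 of NZO lay within the range of the B6 mice, and the log2 fold change was 0.22 ± 0.10 (SE, 95% interval -0.021 to 0.46, adjusted p = 0.22). At base 4803 (chr10:92981534-92981593) the means were 3.72 ± 0.21 (SD, n = 4) and 3.70 ± 0.21, with a log2 fold change of 0.017 ± 0.15 (SE, adjusted p = 0.95). Both 95% intervals for Hal lay inside the fold limit, as they ran up to 0.46 and 0.36.

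**Figure D2:**
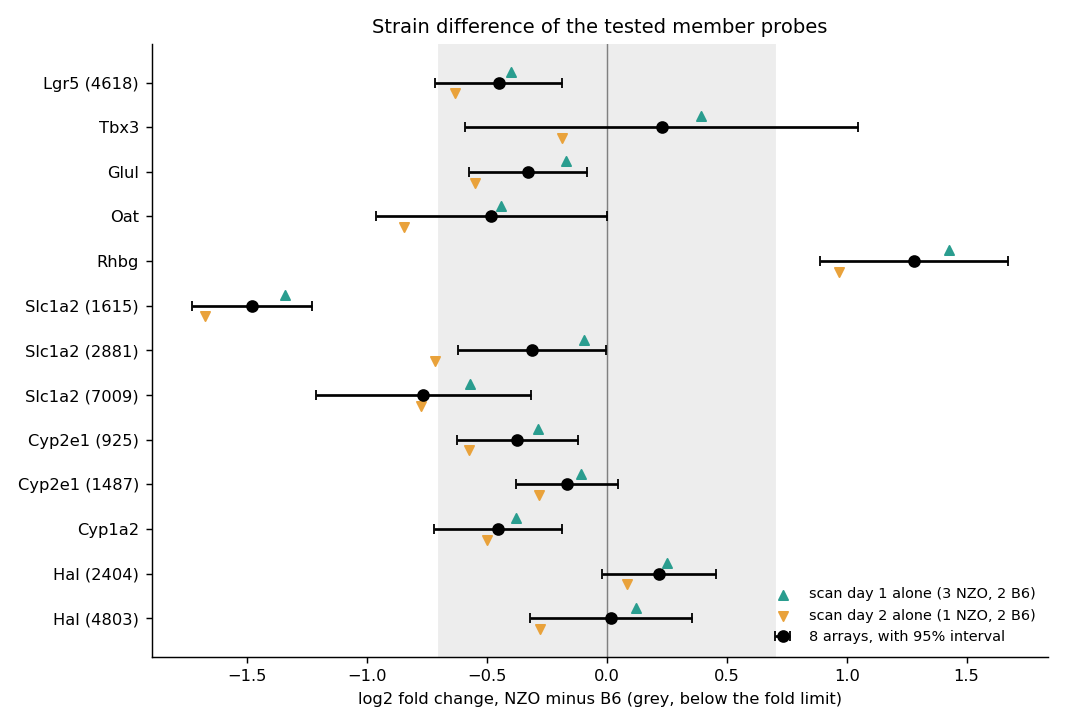
Log2 fold change, NZO minus B6 (horizontal axis), of the 13 tested member probes, with the limma 95% interval over 8 arrays and the values within each scan day. Only Rhbg and Slc1a2 at base 1615 have intervals wholly outside the grey band of the fold limit.

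The pericentral and Wnt members without Hal had 11 tested probes, of which 9 had a negative log2 fold change, against 48.4% of all probes tested. One of the 9, Slc1a2 at base 7009, passed the filter only through B6, where it is higher, so its sign adds no support. By adjusted p alone 4 of the 11 were lower in NZO (the Lgr5 and Cyp1a2 probes and 2 of Slc1a2), against 7.47% of all probes. One of the 4 is again Slc1a2 at base 7009, which was tested through B6 alone. Of the 10 probes above background in all 8 mice, 3 were lower by adjusted p alone. The 7.47% also covers probes tested through 1 strain alone. A share for all probes above background in all 8 mice was not computed. The count of 4 fell whenever 1 mouse was left out. Of the 11 probes, 1 was lower without B6 mouse 9, 11 or 15, 2 without B6 mouse 10 or NZO mouse 3, 7 or 11, and 3 without NZO mouse 9. In these fits on fewer arrays the log2 fold change was -0.51 to -0.39 for Lgr5 and -0.53 to -0.39 for Cyp1a2. For Slc1a2 at base 7009 it was -0.93 to -0.66. Whether the lost passes depend on particular mice was not tested. The count was 6 with quantile normalization and on the deposited table as given, and 1 by the methods' t-test after Benjamini-Hochberg adjustment and with no filter. Values of the strains did not overlap for 5 of the 11 in the lower direction and for 1 in the higher, against 10.7% and 11.3% of all probes. The probes of Slc1a2 share a gene, as do those of Cyp2e1, so these counts are not counts of independent genes. The median log2 fold change of the 11, with Slc1a2 at base 7009 among them, was -0.37, while the median over all probes tested was 0.014.

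**Figure D3:**
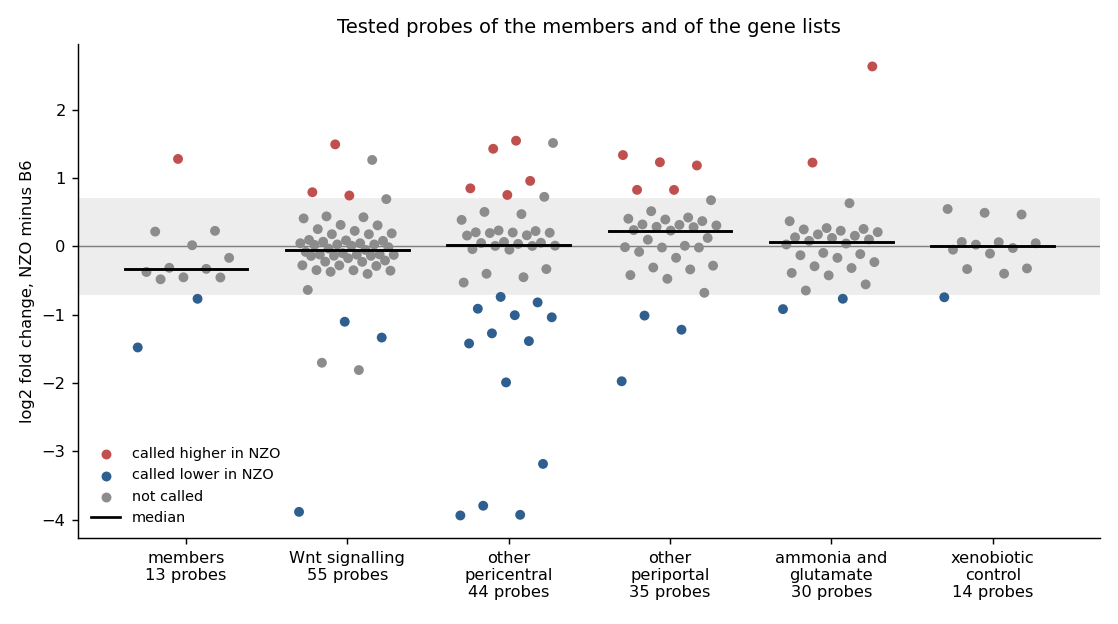
Log2 fold change for NZO against B6 (vertical axis) of the tested probes of the members and of 5 gene lists; each point is a probe, colour gives the call, the line is the median and the grey band is the fold limit. Called probes of the other pericentral genes lie on both sides of 0, down to -3.94 and up to 1.55.

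Of the other genes of the Wnt pathway, a list of 54 with 55 tested probes, 6 probes of 6 genes were called, 3 higher and 3 lower, with a median log2 fold change of -0.052. Over all probes tested 9.63% were called in either direction, and for this list it was 10.91%. Of the ligands that act on pericentral hepatocytes, Wnt9b (0.011, adjusted p = 0.99) and the R-spondin gene Rspo3 (-0.28, adjusted p = 0.32) were not called, and Wnt2 was above background in 2 of 4 B6 mice and in no NZO mouse and was not tested. The R-spondin receptor gene Lgr4 (-0.12), the genes of the receptor-removing ligases Znrf3 (0.023) and Rnf43 (-0.080), beta-catenin Ctnnb1 (0.047) and its nuclear partner Tcf7l2 (0.069 and 0.18 at 2 probes) had adjusted p of 0.57 and above. The sign of Wnt9b, Znrf3, Ctnnb1 and Tcf7l2 turned on the deposited table as given, where the median of all probes moved to -0.15.

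The called genes of the Wnt list were an extracellular inhibitor that was lower and one that was higher, a receptor, parts of the intracellular machinery and an adhesion receptor. Wif1, a secreted Wnt inhibitor, measured 0.022, -1.002, 0.17 and -0.63 in B6 mice 9, 10, 11 and 15 and -5.62, -3.64, -3.42 and -4.30 in NZO mice 3, 7, 9 and 11, of which 2 were above background. The probe was tested through B6 alone, and the size of its difference rests partly on NZO values at background. All NZO mice were below all B6 mice, with a log2 fold change of -3.88 ± 0.49 (SE, adjusted p = 0.0012), or -1.32 with normexp background correction. Cd44, a cell surface receptor for hyaluronan and a Wnt target in other tissues, was lower at 1 of its 2 tested probes (-1.33 ± 0.14, adjusted p = 0.00038), and the other had -1.81 (adjusted p = 0.085). Of the 2 tested probes of the Wnt receptor Fzd5, a dim one that was above background in 3 of 4 NZO mice was lower (-1.10, adjusted p = 0.0066, or -0.13 with normexp) and the other had -0.032 (adjusted p = 0.94). Apc, a scaffold of the complex that degrades beta-catenin, was higher in NZO (1.49 ± 0.18, adjusted p = 0.00092), with 1.29, 0.75, 0.82 and 0.68 in NZO mice 3, 7, 9 and 11 against -0.81, -0.53, -0.83 and -0.28 in B6 mice 9, 10, 11 and 15. The strains did not overlap for Apc; a second Apc probe was near background and was not tested. Ctnnbip1, which blocks beta-catenin from its partners, was higher by 0.79 (adjusted p = 0.0058) and Dkk3, of the Dickkopf family of secreted proteins, by 0.74 (adjusted p = 0.0019). Both were under the fold limit with normexp background correction (0.68 and 0.48).

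The list of other pericentral hepatocyte genes held 32 genes, of which 30 were tested with 44 probes. Of these probes 18 were called (40.91%, against 9.63% of all probes tested), 13 lower and 5 higher. They came from 12 genes, 8 of them lower and 4 higher, some with more than 1 called probe. With the brightest probe of each gene 10 probes were called. The median log2 fold change of the list was 0.024. The lowest were 3 probes of the glutathione transferase gene Gstm6, from -3.79 to -3.94 (highest adjusted p = 2.8e-06). At the probe with -3.79 the B6 mice 9, 10, 11 and 15 had 5.36, 5.28, 5.08 and 5.001 and the NZO mice 3, 7, 9 and 11 had 1.25, 1.59, 1.51 and 1.18. Its relative Gstm1 was lower at one probe (-1.39, adjusted p = 0.00019) and had 0.16 (adjusted p = 0.45) at the other. Cyp2c37 was lower at both probes (-3.18 with adjusted p = 4.4e-06, and -1.27 with adjusted p = 0.0028), and Cyp3a11 was higher at one (1.55, adjusted p = 0.0048) with 0.0073 (adjusted p = 0.99) at the other. These enzymes belong to families with closely similar members, and the part of cross-hybridisation in their probes was not tested.

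The vasopressin receptor gene Avpr1a was lower in NZO, with 2.47, 2.96, 2.58 and 1.93 in B6 mice 9, 10, 11 and 15 and 0.36, 0.19, 0.93 and 0.49 in NZO mice 3, 7, 9 and 11 (-1.99 ± 0.24, adjusted p = 0.00089). Nr1i3, which encodes the constitutive androstane receptor that controls drug metabolism, was lower at both probes (-1.04 with adjusted p = 0.0057, and -1.01 with adjusted p = 0.0034). The aromatic amino acid transporter gene Slc16a10 was lower at 2 of 3 tested probes (-0.91 with adjusted p = 0.0041, and -1.42 with adjusted p = 0.0038, or -0.51 with normexp) and had -0.45 (adjusted p = 0.19) at the third. The sulfotransferase gene Sult5a1 was higher (1.43 ± 0.20, adjusted p = 0.0020).

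In the list of other periportal genes, 24 genes with 35 tested probes, 8 probes were called (22.86%, against 9.63% of all probes tested). Of these 5 were higher and 3 lower, and the median log2 fold change of the list was 0.23. All but 1 of the 5 higher probes were of Igf1, the growth factor made by hepatocytes (0.83, 1.19, 1.34 and 0.83, highest adjusted p = 0.0026), with one further tested probe at 0.24 (adjusted p = 0.79). On the deposited table as given both Igf1 probes with 0.83 had 0.61, under the fold limit. The Igf1 probe with 1.19 had an adjusted p of 0.059 by the methods' t-test after Benjamini-Hochberg adjustment. The remaining higher probe was of the apolipoprotein gene Apoa4 (1.23, adjusted p = 0.036), which lost its call without NZO mouse 3 (0.99) or 11 (1.20) or B6 mouse 9 (1.20), 10 (1.05) or 11 (1.25). E-cadherin Cdh1 was lower (-1.01 ± 0.14, adjusted p = 0.0016). The steroid dehydrogenase gene Hsd17b6 was lower by the rule (-1.22, adjusted p = 0.037), but only without NZO mouse 9 (-1.39) did the call remain when 1 mouse was left out, the other values being -0.97 without B6 mouse 15, -0.98 without NZO mouse 11, -1.22 without NZO mouse 7, -1.29 without NZO mouse 3, and -1.28, -1.31 and -1.31 without B6 mice 11, 10 and 9. Hsd17b13, a lipid droplet protein gene, was at background in all NZO mice at one probe, at least 1.86-fold higher in B6 by the reported processing (adjusted p = 0.012). It was tested through B6 alone, and its log2 fold change was -0.16 (adjusted p = 0.17) with normexp background correction, -0.58 on the deposited table as given (adjusted p = 0.024, under the fold limit) and -0.38 (adjusted p = 0.075) on the scaled table, each without a call. The other probe of Hsd17b13 had 0.099 (adjusted p = 0.68).

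The list of ammonia and glutamate genes had 30 genes with 30 tested probes, with a median log2 fold change of 0.062. Of these probes 4 were called, 2 in each direction (13.33%, against 9.63% of all probes tested). Rhcg, a second ammonia transporter gene of the family of Rhbg, was higher in NZO (2.63 ± 0.54, adjusted p = 0.013) but was above background in 4 of 4 NZO mice and 1 of 4 B6 mice, so that it was tested through NZO alone and the size of the difference rests on B6 values at background. Its levels were -2.48, -1.35, -2.06 and -2.17 in NZO mice 3, 7, 9 and 11 and -6.03, -5.15, -3.43 and -4.00 in B6 mice 9, 10, 11 and 15. With normexp background correction its log2 fold change was 0.60, under the fold limit. Amdhd1, an enzyme further down the histidine pathway that Hal opens, was lower (-0.92 ± 0.11, adjusted p = 0.00092). Got1, the cytosolic aspartate aminotransferase, was higher (1.23, adjusted p = 0.025), with the call lost without NZO mouse 3 (1.18) or B6 mouse 10 (1.20), 11 (1.16) or 15 (1.14).

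A list of 13 genes held regulators of Cyp1a2 and Cyp2e1, other targets of the aryl hydrocarbon receptor and partners of P450 enzymes in electron transfer. Of these, 10 were tested with 14 probes and 1 probe was called (7.14%, against 9.63% of all probes tested). This was the lower probe of Tiparp, a target and inhibitor of the aryl hydrocarbon receptor (-0.74, adjusted p = 0.012). It dropped under the fold limit without NZO mouse 7 (-0.69) or B6 mouse 9 (-0.69) or 15 (-0.685), and the other Tiparp probe had 0.065 (adjusted p = 0.86). The median log2 fold change of the list was 0.0016. Ahr stands in this list and in the pericentral one.

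The tissue label was checked with cell type markers. All 5 hepatocyte markers were above background on all 8 arrays, and none was called. The largest part of each sum, over the 8 arrays together, is named by its probe's gene, as a share of signal and not as a rank of transcripts. For hepatocytes, with Alb as that gene, the summed signal was 3920, 3870, 3850 and 3790 times the 75th percentile in NZO mice 3, 7, 9 and 11 and 3000, 3770, 3200 and 3650 in B6 mice 9, 10, 11 and 15. The adipocyte markers Adipoq and Plin1 and the pancreatic markers Cela3b, Cpa1, Pnlip and Prss2 were at background on all 8 arrays. Some markers of other cells were called; their counts stand against 9.63% of all probes called in either direction. Of the red blood cell markers, 2 of 4 tested probes were higher in NZO, Hba-a1 by 1.00 (adjusted p = 0.018) and Alas2 by 0.90 (adjusted p = 0.0023), and their summed signal was 318, 366, 470 and 293 in NZO mice 3, 7, 9 and 11 against 197, 165, 208 and 155 in B6 mice 9, 10, 11 and 15. Of the bile duct markers, 2 of 4 tested probes were lower in NZO, Sox9 by -1.47 (adjusted p = 0.0089) and Spp1 by -0.89 (adjusted p = 0.031), with a summed signal, mostly from Spp1, of 2.33, 2.34, 2.55 and 1.71 in NZO against 4.04, 3.46, 4.29 and 5.52 in B6.

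Endothelial cells of the central vein are the source of the pericentral Wnt signal. The endothelial markers used here are of central vein and sinusoids together and do not single out the central vein. Of their 10 tested probes 1 was called, which is near the share of all probes; it was that of thrombomodulin, Thbd (-1.26 ± 0.11, adjusted p = 0.00017), which was lower in every NZO mouse. Their summed signal, with Clec4g as the largest part, was 112, 108, 91.4 and 86.3 in NZO mice 3, 7, 9 and 11 and 94.2, 95.4, 99.4 and 86.9 in B6 mice 9, 10, 11 and 15, so that the strains overlapped. Among the leukocyte markers, with Cd3e as the largest part, 1 of 6 tested probes was called, that of Itgax, which was lower in NZO but was tested through B6 alone, with 2 of 4 NZO mice at background, and the summed signals were 11 to 19 in NZO and 11.1 to 13.6 in B6. No stellate cell marker (5 tested probes, with Dcn as the largest part) was called, with summed signals of 42.4 to 52.9 in NZO and 57.6 to 66.1 in B6. The part of these cell types in the differences of the members was not tested. Muscle markers, with 3 tested probes and none called, summed to 18.8 in NZO mouse 7 and 6.18 in B6 mouse 10 and to at most 1.59 in the other 6 mice, with Myh4 as the largest part.

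The promoters of the members were read for the letters bound by the nuclear partners of beta-catenin, since Glul, Axin2 and Lgr5 are known targets of that pathway. RefSeq promoter windows of GRCm38.p6, from 250 bases before to 50 after the start, were at hand for 7 of the 10 members; Lgr5, Tbx3 and Rhbg had no entry. CTTTGAT or its reverse complement ATCAAAG was in 3.73% of all 32851 windows and was found in those of Slc1a2 and Hal. CTTTGAA or TTCAAAG was in 5.14% of all windows and was found in those of Cyp2e1 and Cyp1a2. The windows of Glul, Oat and Axin2 held neither. The 250 bases before the start are shown for Slc1a2, which was lower in NZO, and for Hal, the periportal reference, with the match in capitals, 207 and 199 bases before the start.
Slc1a2 promoter, chr2:102706188-102706437, plus strand: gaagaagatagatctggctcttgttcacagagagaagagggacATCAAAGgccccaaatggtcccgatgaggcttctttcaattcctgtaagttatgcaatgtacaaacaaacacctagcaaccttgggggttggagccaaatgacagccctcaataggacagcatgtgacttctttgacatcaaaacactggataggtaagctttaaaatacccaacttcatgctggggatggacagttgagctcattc
Hal promoter, chr10:93488518-93488767, plus strand: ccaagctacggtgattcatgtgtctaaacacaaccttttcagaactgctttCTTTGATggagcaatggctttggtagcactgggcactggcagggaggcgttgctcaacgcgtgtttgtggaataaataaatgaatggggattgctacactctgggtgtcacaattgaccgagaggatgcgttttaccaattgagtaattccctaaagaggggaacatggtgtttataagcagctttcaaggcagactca
The same letters stand in the window of a gene that was called and of one that was not. Rhbg, the other called member, had no window, and the windows are of the reference sequence. The part of these letters in the strain differences was not tested.

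**Figure D4:**
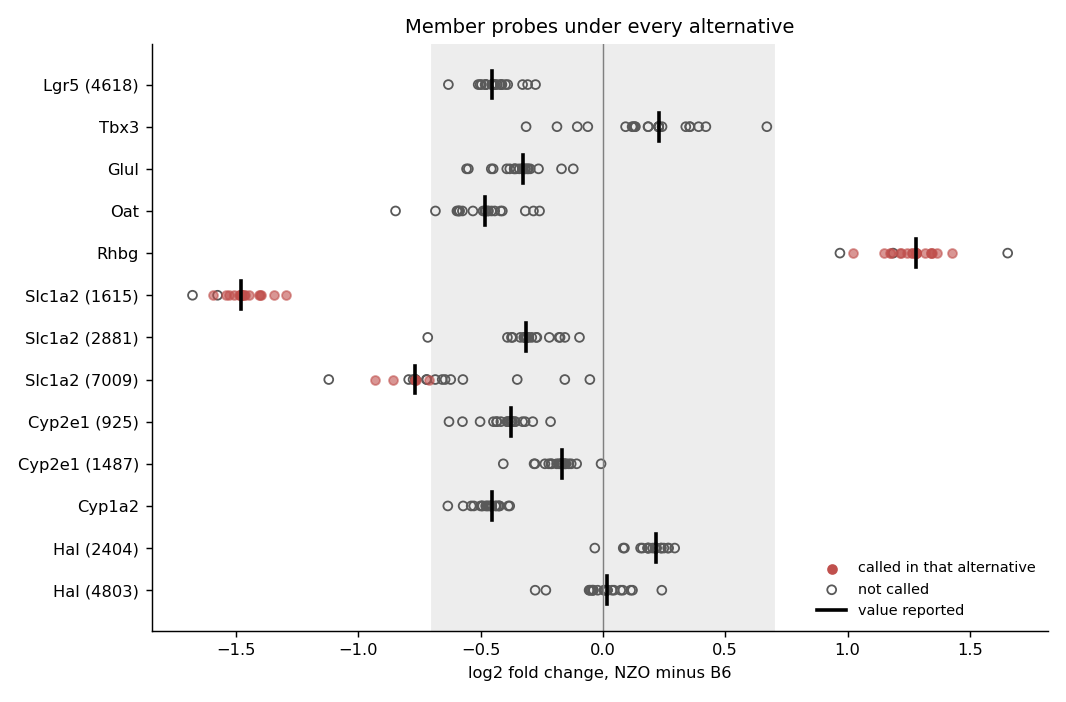
Log2 fold change, NZO minus B6 (horizontal axis) of the 13 tested member probes under each alternative processing or left-out mouse (circles) and as reported (black line); filled circles passed the call rule. Slc1a2 at base 1615 stayed between -1.68 and -1.29 and Rhbg between 0.97 and 1.65, while Tbx3 and both Hal probes crossed 0.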

How the data were processed

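RNA of whole liver was labelled with Cy3 and hybridised to one-colour Agilent arrays of 60-base probes. The authors deposited the scanner output and a table of values; the labels name Agilent Feature Extraction 9.1 and the file headers 11.0.1.1. The deposited intensity was the processed signal of each spot, background-subtracted by the scanner software, while the deposited table, named as normalized, held the raw median intensity of the spots on a linear scale, neither background-subtracted nor scaled between arrays (100% of 55249 values equal within 0.01 on each array; medians 34.0 to 41.0). RNA with an integrity number above a limit had been selected, per the labels. The probe positions in the files are on mm9.

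From these values, log2 of the processed signal minus the array's 75th percentile (118.7 to 141.9 in NZO, 136.4 to 158.8 in B6) was computed with spots of one probe averaged and control spots and outlier flags left out; no member spot was flagged. Between 50.4% and 60.0% of probes were well above background. Tested were the 27651 probes with a signal above background in all 4 mice of NZO, of B6 or of both, using limma 3.58.1 in R 4.3.3, with strain as the only term. A call needed a Benjamini-Hochberg adjusted p of at most 0.05 and an absolute log2 fold change of at least 0.7, the fold limit of the study's methods. The number of arrays limits the precision. The code was tested on simulated data.

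Files name 5 slides and 2 scan days, the first day with 3 NZO and 2 B6 arrays and the second with 1 and 2; only slide 1 held both strains (NZO mouse 3, B6 mice 10 and 15). In the fits within the second day and with slide as a fixed term, a lone NZO mouse is assumed to vary like the others. Names were matched by the array's gene name and, for the lists, by the RefSeq symbol of the accession. All members are named with every probe, as are list genes with a called probe (of more than 8, the 8 with the largest change), and Wnt2, Wnt9b, Rspo3, Lgr4, Znrf3, Rnf43, Ctnnb1 and Tcf7l2 whatever their values. The values of 1 further called gene of the ammonia list are not reported here, and it is part of the counts and the median of its list. The members and the lists were chosen with earlier results of these data known. The labels number the mice singly, and mouse numbers shared by the strains do not pair them. Alternatives were normexp background correction (offset 50), quantile normalization, the deposited table as given and scaled to the 75th percentile, no filter, probes above background on all 8 arrays, the brightest probe per gene, slide and scan day as terms, each scan day alone, a replicate block, the methods' test with Welch correction, unadjusted thresholds, and leaving out each mouse.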

Additional observations from a re-analysis of the deposited data

Results flagged for a closer look

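In 6 of 130 sets of 4 mice, 1 mouse stood apart from the other mice of its strain by Dixon's test, which flags about 1 set in 20 by chance. None was a member probe. Cd44 measured 1.25 in B6 mouse 15 at its probe without a call, against -1.66 to -1.31 in the other B6 mice, and without that mouse the probe passed the call rule (-1.13). Cyp3a11, at its probe without a call, measured 6.39 in NZO mouse 7 (the other NZO mice had 6.89 to 6.98) and 5.92 in B6 mouse 10 (the other B6 mice had 6.98 to 7.18). Gstm1, at its probe without a call, measured 7.43 in NZO mouse 7 against 6.94 to 7.01. Hsd17b6 measured 3.69 in B6 mouse 15 against 2.69 to 2.77, and Tiparp, at its lower probe, measured -0.84 in NZO mouse 3 against -1.33 to -1.26.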

How the results depend on the processing

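Rhbg and Slc1a2 at base 1615 kept their direction under all 24 alternatives. Slide as a fixed term compares NZO mouse 3 alone with B6 mice 10 and 15, since only slide 1 held both strains, so a call lost there does not show a dependence on slide. Scan day 2 held 1 NZO and 2 B6 arrays, so a call lost within it does not show a dependence on scan day. Rhbg had 1.65 with slide as a fixed term and 0.97 within scan day 2, both without a call. Slc1a2 at base 1615 had -1.68 within scan day 2, also without a call. With the replicate block the adjusted threshold was missed by Rhbg (1.19, adjusted p = 0.075) and by Slc1a2 at base 1615 (-1.57, adjusted p = 0.065). Slc1a2 at base 7009 kept its direction under all of its 22 alternatives and lost its call under 16 of them (from -1.12 to -0.053). No other member probe gained a call.

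The mouse numbers do not pair the strains: deviations of mice 9 and 9 correlated at r = -0.26 and of mice 11 and 11 at -0.0041. With the replicate block, which rests on these 2 numbers, 72 probes were higher and 134 lower, and 0 member probes in either direction, 0 of the Wnt, periportal, ammonia and xenobiotic lists and 3 of the pericentral list were called. Beside the 1200 higher and 1463 lower probes reported, normexp correction gave 617 and 580, the deposited table as given 575 higher, its scaling to the 75th percentile 818 lower, the filter on all 8 arrays 965 lower, slide as a fixed term 498 higher, scan day 1 alone 800 lower, scan day 2 alone 278 and 554, and the methods' t-test after Benjamini-Hochberg adjustment 890 lower. Leaving out a mouse gave 1056 to 1219 higher and 1221 to 1465 lower. In the unscaled deposited values the median log2 fold change of all probes was -0.15 and 28.82% of calls were higher, against 45.06% as reported; it was 51.55% with normexp and 51.68% on the scaled table.

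Member probes called higher were 0 with slide as a fixed term and within scan day 2. Those called lower were 1 with normexp, both forms of the deposited table, no filter, the filter on all 8 arrays, the brightest probe, slide or scan day as a fixed term, scan day 1 alone and the methods' t-test after adjustment, and 0 within scan day 2; leaving out a mouse gave 1 to 2 lower and always 1 higher. The Wnt list had 2 called probes with slide as a fixed term and 2 within scan day 2 (6 to 7 without a mouse). The pericentral list had 10 with the brightest probe, 8 with slide as a fixed term, and 10 and 5 within the scan days (16 to 18 without a mouse). The periportal list had 5 on the deposited table as given, 4 with the brightest probe, 1 with slide as a fixed term, 3 and 0 within the scan days and 4 by the adjusted t-test (6 to 8 without a mouse). The ammonia list had 2 with normexp, 2 with no filter, 0 with slide as a fixed term, 2 and 0 within the scan days and 1 by the adjusted t-test (2 to 5 without a mouse; 2 without NZO mouse 3 or B6 mouse 10 or 11). The xenobiotic list had 0 with normexp, both forms of the deposited table, the brightest probe, slide as a fixed term and each scan day (0 to 1 without a mouse).

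Sign changes concerned probes without a call only, and the cause was not tested. On the raw deposited table values were -0.062 for Tbx3, -0.033 and -0.23 for Hal, -0.16 for Ctnnb1, -0.22 for Cyp3a11, -0.11 for Gstm1, -0.10 for Hsd17b13, -0.19 and -0.048 for Tcf7l2, -0.10 for Tiparp, -0.17 for Wnt9b and -0.11 for Znrf3. With slide as a fixed term it was -0.31 for Tbx3, 0.27 for Fzd5, 0.17 for Rspo3 and -0.041 and -0.33 for Tcf7l2. Within scan day 2 it was -0.19 for Tbx3, -0.28 for Hal at base 4803, -0.0905 for Ctnnb1, -0.69 for Cyp3a11, -0.088 for Tiparp, -0.425 for Wnt9b and -0.016 for Znrf3, and within scan day 1 0.023 for Fzd5 and -0.079 for Tcf7l2. For Hal at base 4803, Cyp3a11 and Fzd5 it was -0.049, -0.0664 and 0.073 with normexp, -0.0565, -0.12 and 0.0097 with quantile normalization, and -0.039, -0.029 and 0.028 on the scaled table; Ctnnb1 had -0.016 with quantile normalization. With scan day as a fixed term it was -0.021 for Hal at base 4803, -0.021 for Ctnnb1 and -0.0021 for Znrf3, and with slide as a random block 0.0063 for Fzd5. With the replicate block it was -0.18 for Cyp3a11, 0.0665 for Lgr4, 0.58 for Rnf43, -0.15 for Tiparp, -0.77 for Wnt9b and -0.016 for Znrf3. Without 1 mouse it ran from -0.10 to 0.42 for Tbx3, -0.054 to 0.11 for Hal at base 4803, -0.011 to 0.13 for Ctnnb1, -0.28 to 0.14 for Cyp3a11, -0.19 to 0.0945 for Fzd5, -0.13 to 0.54 for Igf1, -0.21 to 0.020 for Lgr4, -0.23 to 0.19 for Rnf43, -0.084 to 0.18 for Tiparp, -0.24 to 0.28 for Wnt9b and -0.061 to 0.10 for Znrf3.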
